A study of Mus musculus with 10 samples.

Results

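Protocadherins are cadherin-like membrane proteins, and the array used here carried 42 probe sets whose deposited title names one, out of 29011 probe sets that are not controls. They were taken by title alone and sorted into the alpha cluster (1 probe set), the beta cluster (23), the gamma cluster (1) and the non-clustered genes (17), and they name 39 genes. The RNA was from mouse cortex at E10.5, and the pair of cortices of an embryo formed 1 sample. The titles cover all 22 beta genes of the current mouse gene table and all 12 genes named Pcdh with a number, but 1 of 12 alpha and 1 of 21 gamma genes, and they add Cdhr1, Cdhr2 and Cdhr5. There were 5 embryos heterozygous for the Mos2 mutant allele of Magoh and 5 wild-type embryos, all on the C57BL/6 background. The Magoh protein belongs to the core of the exon junction complex, which marks spliced mRNA where exons were joined. Mos2 is a germline allele, and no Cre limits it to a cell type. The comparison asks whether protocadherin transcripts differ between mutant and wild-type cortex. All values are log2 levels, differences are mutant minus wild type on that scale, and spreads are SD over n = 5 arrays.

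As background, clustered protocadherins are encoded in neighbouring tandem arrays of genes. In the alpha and gamma clusters each variable first exon is spliced to constant exons that all members of the cluster share, whereas beta genes have a single coding exon and no constant exons. A neuron uses a small and largely random choice of these genes, under control of the DNA-binding protein CTCF and the cohesin ring, and the proteins bind their own kind on other cells, which lets branches of a neuron avoid each other. Non-clustered protocadherins are separate genes, many with regional patterns in the embryonic brain, and they act in cell sorting, axon growth and cell movement.

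Pcdh18 and Pcdh19 were the members with levels above the array background (the 95th percentile of its negative-control probe sets) in both genotypes, so the sequence around their RefSeq starts is given here, 250 bases before to 50 after the start, with every CpG in capitals. The window of Pcdh18 lies on the minus strand at chr3:49757267-49757566 and that of Pcdh19 on the minus strand at chrX:133688944-133689243, both of build GRCm38.p6. The array does not tell which start was used.
Pcdh18: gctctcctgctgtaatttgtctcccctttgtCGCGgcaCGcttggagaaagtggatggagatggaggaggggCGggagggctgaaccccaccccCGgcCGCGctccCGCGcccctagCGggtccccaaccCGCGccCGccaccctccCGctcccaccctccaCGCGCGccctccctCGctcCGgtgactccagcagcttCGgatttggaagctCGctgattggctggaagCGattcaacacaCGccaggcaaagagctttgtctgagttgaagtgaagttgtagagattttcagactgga
Pcdh19: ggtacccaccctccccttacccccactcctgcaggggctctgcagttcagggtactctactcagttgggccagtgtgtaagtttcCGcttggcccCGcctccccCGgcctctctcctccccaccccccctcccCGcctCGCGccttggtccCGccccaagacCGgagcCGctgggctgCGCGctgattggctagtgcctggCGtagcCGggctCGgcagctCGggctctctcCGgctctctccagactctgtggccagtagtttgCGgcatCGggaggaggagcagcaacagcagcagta
They hold 23 and 18 CpG sites, against a median of 7 over the 32851 RefSeq windows of 300 bases in the table used. As many CpG sites or more were found in 21.5% of these windows for Pcdh18 and in 29.7% for Pcdh19. Windows were matched for 12 of the 39 genes, all of them non-clustered, so promoters of clustered genes and of Pcdh1, Pcdh11x and Pcdh12 were not analysed here. The matched genes ran from 4 CpG sites in Cdhr2 and in Pcdh20 to 26 in Pcdh17. Pcdh17 and Pcdh10 (24) had more sites than Pcdh18 but levels below that 95th percentile. Their levels were above 90.1% and 72.7% of the negative controls.

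Magoh itself set the labels apart. Its level was 10.31, 10.30, 10.37, 10.17 and 9.92 on mutant arrays 1 to 5, against 11.07, 11.08, 11.14, 11.06 and 10.90 on wild-type arrays 1 to 5, with no overlap and a difference of -0.84 (SE 0.084, limma adjusted p = 0.000348). The forebrain factors Emx2, Lhx2 and Pax6 averaged 8.47 ± 0.13, 9.94 ± 0.27 and 9.36 ± 0.18 in mutants, against 8.63 ± 0.091, 10.16 ± 0.090 and 9.35 ± 0.15 in wild type. Over all probe sets, 41 were higher and 46 lower at an adjusted p under 0.05, and 43 to 124 were called when 1 array was left out. Mutant arrays 1 and 5 stood apart: 119 and 104 probe sets lay over 1 log2 unit below the median of the other 4 mutant arrays, while the other 8 arrays had 1 to 31 such probe sets against the arrays of their own genotype. Of the 42 protocadherin probe sets, 0 deviated by more than 1 log2 unit on any array. Negative-control probe sets had a median of 5.61 and a 95th percentile of 8.57, each averaged over the 10 arrays. By array the median ran from 5.34 (array 5) to 5.82 (array 1) in mutants, against 5.47 to 5.63 in wild type. The floor thus varied between arrays, more so among the mutants.

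No protocadherin probe set passed the test. Of 42, 0 rose and 0 fell at an adjusted p under 0.05 in limma, where 0.300% of all probe sets were called, and the smallest adjusted p among them was 0.465. At an unadjusted p under 0.05 there was 1 of 42, Pcdhb5, where 8.48% of all probe sets reached that level. The 5 mutant arrays lay wholly above the 5 wild-type arrays in 0 members and wholly below in 0, where 1.21% of all probe sets did so in each direction. Differences ran from -0.23 in Pcdhb19 to 0.22 in Pcdhb5, 25 were negative and 17 positive, and 32 were smaller than 0.1 in size. The median difference was -0.025, against 0.0023 over all probe sets, and the median size was 0.062, against 0.063. The sizes were thus about those of all probe sets, and the genotypes overlapped in every member.

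The limit of these measurements can be stated. With the spread seen here, a member needed a difference of 0.31 to 0.63, depending on the probe set (median 0.44), to be called. The 95% intervals of all 42 differences lay between -0.49 and 0.40, which as ratios of array signal is 0.71 to 1.32. A smaller measured difference would not have been called with 5 arrays a genotype. These sizes are thresholds for a call, and a true difference of such a size could still be missed. For members near background the array signal compresses any difference in RNA, so these ratios bound the signal and not the transcript. A bulk level also cannot tell fewer cells expressing a gene from less RNA per cell.

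**Figure D1:**
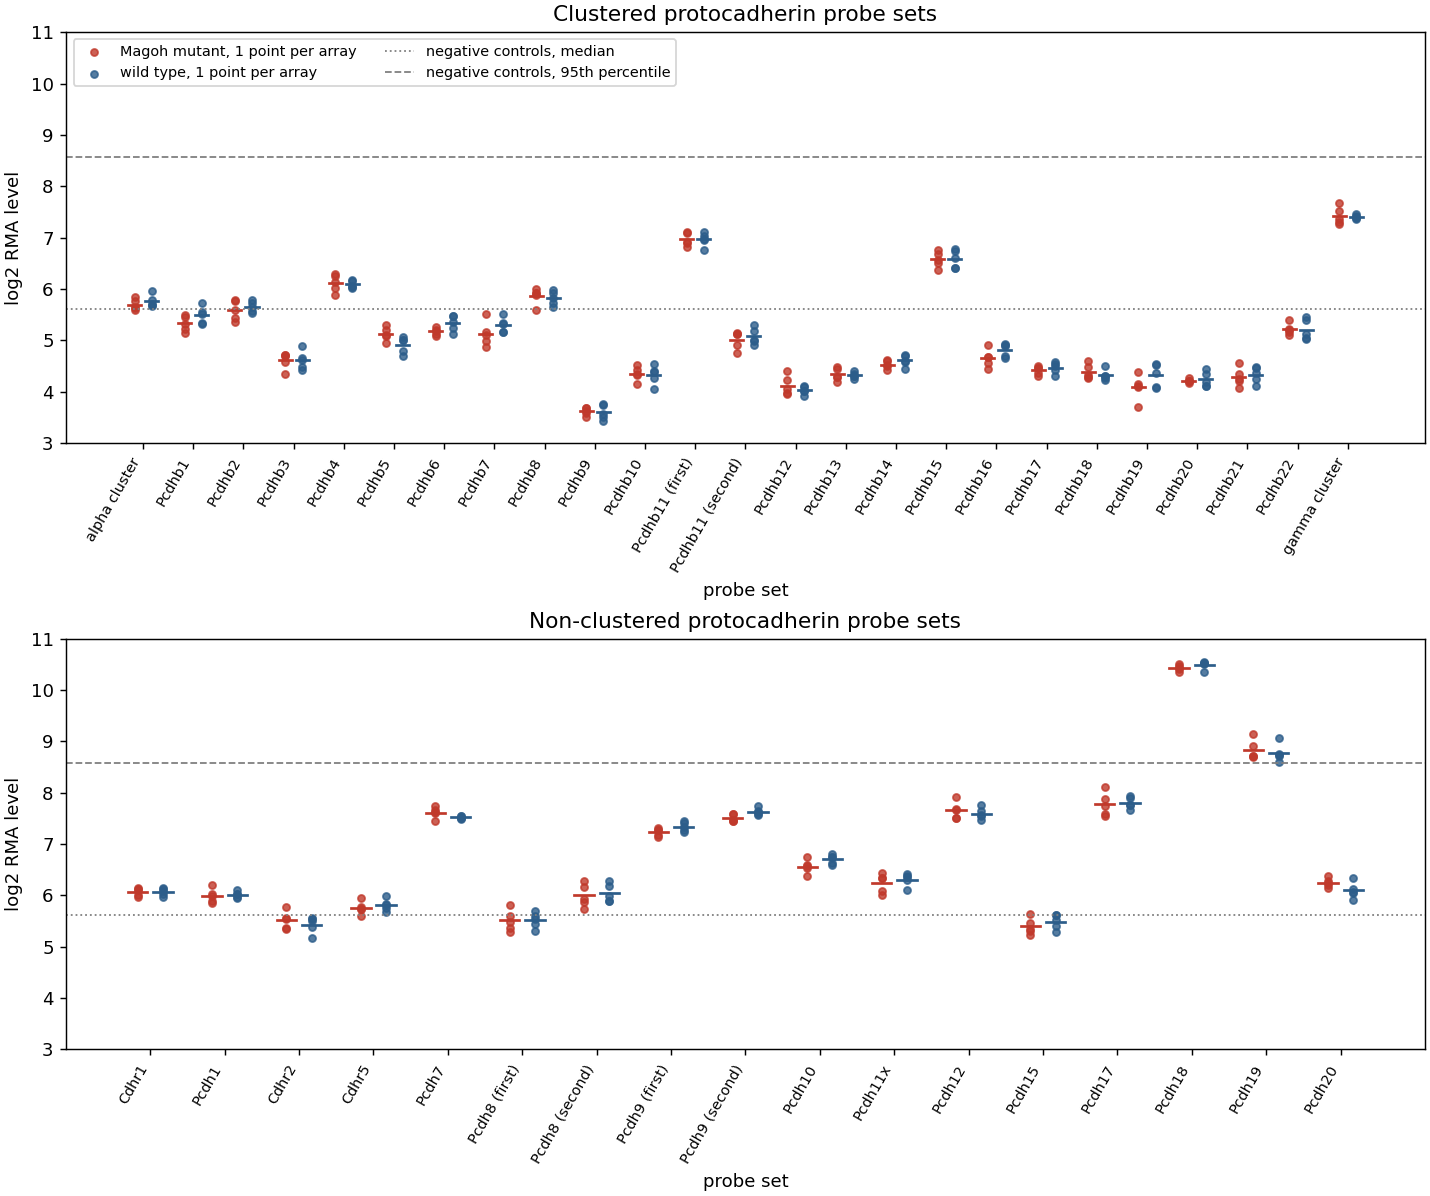
Log2 RMA level of each protocadherin probe set (y axis) on every array, with 5 Magoh mutant arrays at the left and 5 wild-type arrays at the right of each position and bars at the means. Dotted and dashed lines mark the median (5.61) and the 95th percentile (8.57) of the negative controls. The points of the genotypes overlap for every probe set, and Pcdh18 and Pcdh19 are the members whose means lie above the dashed line.

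Most clustered protocadherins were measured near or below background at this age. All 25 clustered probe sets lay below 8.57 in both genotypes, as did 15 of the 17 non-clustered ones, so 2 of 42 members lay above it, against 23.3% of all probe sets. Of the 23 beta probe sets, 19 had a mean of 5.61 or less, the median of the negative controls, in at least 1 genotype. Their means ran between 3.61 and 6.96 in mutants and between 3.59 and 6.96 in wild type. A level in this range does not show that a gene was silent, since a transcript present in few cells would be diluted in the dissection.

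The alpha cluster was covered by 1 probe set, for which the deposited columns name different alpha members (a title of alpha 10, a UniGene title of alpha 7 and a gene number now assigned to Pcdha6). It is therefore labelled by its cluster and not by a gene. Whether it reads a single alpha gene or several was not tested, since probe positions were not used. The level of this probe set was 5.64, 5.60, 5.77, 5.64 and 5.83 on the mutant arrays, against 5.95, 5.78, 5.71, 5.69 and 5.66 on the wild-type arrays. The ranges overlapped, although 3 mutant arrays lay below the lowest wild-type array. The difference was -0.062 (SE 0.073, limma adjusted p = 0.883), with a 95% interval of -0.22 to 0.094.

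The gamma cluster likewise had 1 probe set, titled gamma A12, and here the sum of many family members may be read if its probes lie in shared exons. That was not tested, since probe positions were not used. It gave 7.67, 7.31, 7.27, 7.52 and 7.37 in mutants, against 7.37, 7.45, 7.38, 7.43 and 7.41 in wild type. Mutant arrays 1 and 4 were above and mutant arrays 2 and 3 below all wild-type arrays, so the mutants were more spread, with an SD of 0.17 in mutants and 0.035 in wild type. The difference was 0.020 (SE 0.077, limma adjusted p = 0.972), and it was -0.041 without mutant array 1.

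The beta cluster gave 1 probe set for each of 22 genes and a second for Pcdhb11. Of the 23, 0 were called, 13 differences were negative and 10 positive, and their median was -0.011. Signs were mixed along the tandem array: Pcdhb1, Pcdhb6 and Pcdhb7 differed by -0.16, -0.16 and -0.17, while Pcdhb5, which lies among them, differed by 0.22. None of these 4 was called, with limma adjusted p of 0.693, 0.605, 0.743 and 0.465. Their means lay under the negative-control median of 5.61 in both genotypes. Pcdhb2, Pcdhb3 and Pcdhb4, also in that stretch, differed by -0.064, -0.0053 and 0.025.

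Pcdhb5 had the smallest p of the family. Its level was 4.95, 5.21, 5.11, 5.09 and 5.30 on the mutant arrays, against 5.06, 5.01, 5.01, 4.69 and 4.80 on the wild-type arrays. Mutant arrays 2 to 5 lay above the highest wild-type array and mutant array 1 within the wild-type range. The difference of 0.22 (SE 0.086, limma adjusted p = 0.465) had an interval of 0.033 to 0.40, and both means lay under the median of the negative controls. It ran from 0.16 without wild-type array 4 to 0.26 without mutant array 1.

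Pcdhb19 was the member with the most negative difference. It gave 4.14, 4.39, 4.09, 3.70 and 4.11 in mutants, against 4.08, 4.54, 4.51, 4.10 and 4.36 in wild type, a difference of -0.23 (SE 0.12, limma adjusted p = 0.662). The low mutant array 4 carried much of it, since the difference without that array was -0.13. These levels are below the negative-control median on every array.

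The 3 beta probe sets with the highest means were those of Pcdhb11 (the probe set 10430892), Pcdhb15 and Pcdhb4. For Pcdhb11 the values were 7.10, 6.91, 6.82, 6.89 and 7.10 in mutants, against 7.02, 6.97, 7.11, 6.95 and 6.76 in wild type, which overlap over nearly their whole range (difference 0.00094, SE 0.080, limma adjusted p = 0.998). The second Pcdhb11 probe set differed by -0.072 (SE 0.094, limma adjusted p = 0.899). Pcdhb15 differed by -0.011 (SE 0.095) and Pcdhb4 by 0.025 (SE 0.081), with limma adjusted p of 0.991 and 0.970. Averaged over all 23 probe sets, the beta level was 4.94 ± 0.081 in mutants and 4.97 ± 0.036 in wild type, and mutant array 5 had the highest mean (5.06) and mutant array 4 the lowest (4.85) of the 10.

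**Figure D2:**
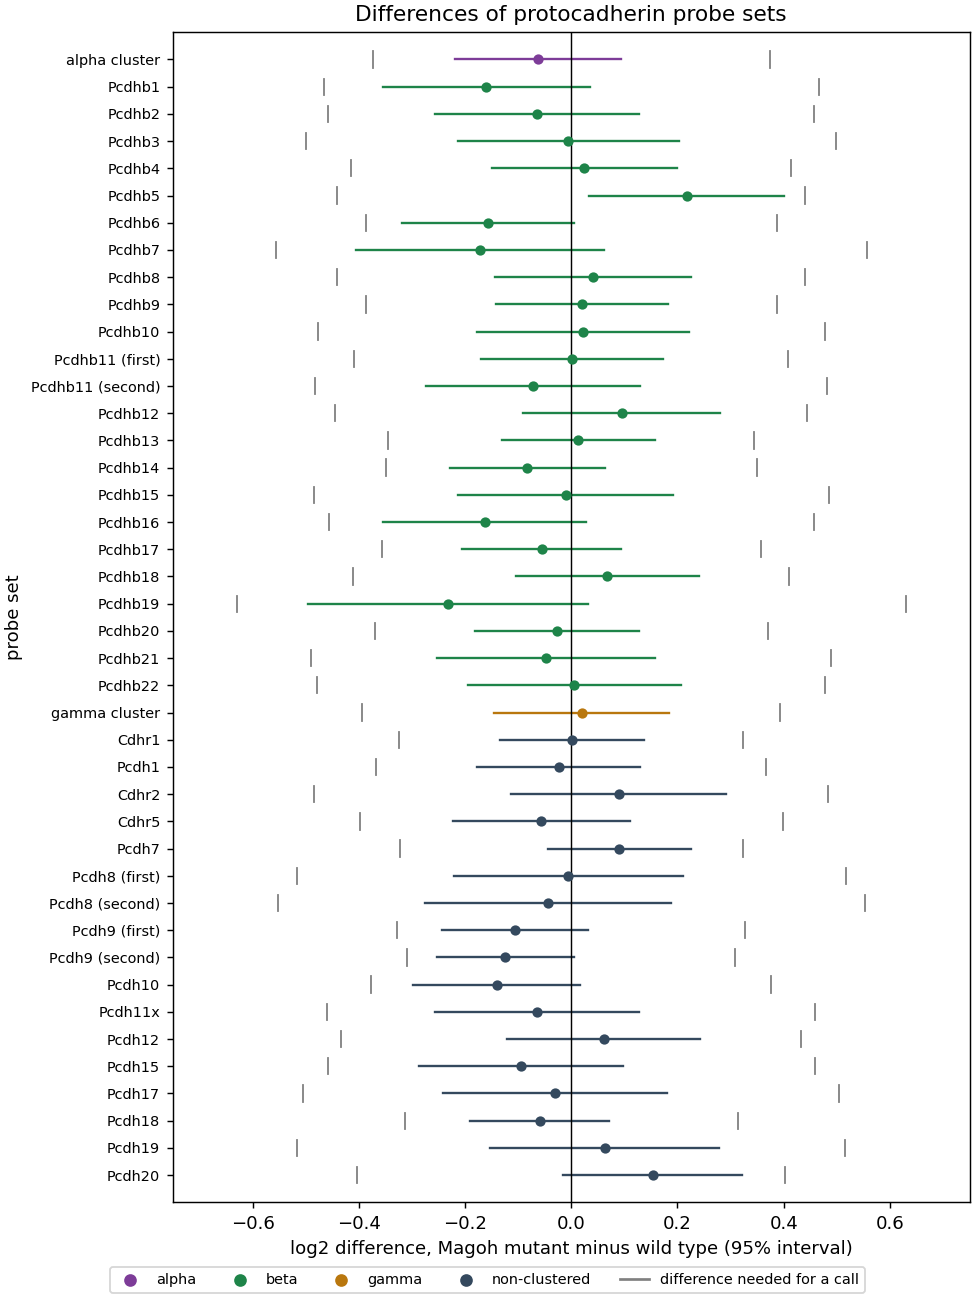
Log2 difference, Magoh mutant minus wild type (x axis), of each of the 42 probe sets, as points with 95% intervals coloured by class, where labels ending in first and second are probe sets of the same gene. Grey ticks mark the size a difference needed to be called with that probe set's error, and no point reaches its tick.

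Among non-clustered genes, 0 of 17 probe sets were called, 11 differences were negative and 6 positive, and the median was -0.031. Pcdh18, whose protein binds the adaptor Dab1 and which has known roles in cell movement, stood furthest above the negative controls. Its level was 10.35, 10.48, 10.42, 10.502 and 10.41 in mutants, against 10.35, 10.53, 10.502, 10.56 and 10.52 in wild type, above 98.8% of the negative controls. The values of mutant and wild-type arrays overlapped, and wild-type array 1 was level with the lowest mutant array. The difference was -0.060 (SE 0.061, limma adjusted p = 0.859), with an interval of -0.19 to 0.072 on a signal that stands clear of background.

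Pcdh19 is an X-linked gene whose loss causes an epilepsy in humans. It gave 9.14, 8.72, 8.72, 8.70 and 8.92 in mutants, against 8.75, 8.74, 8.72, 8.60 and 9.07 in wild type. Mutant array 1 and wild-type array 5 were the highest of their genotypes, and the ranges overlapped. The difference was 0.063 (SE 0.10, limma adjusted p = 0.921), and it was -0.012 without mutant array 1. With the level of Xist, a transcript of the inactive X chromosome, as a covariate it was 0.063. The other X-linked member, Pcdh11x, differed by -0.064 (SE 0.090, limma adjusted p = 0.906).

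Both probe sets of Pcdh9, a neuronal protocadherin, were lower in all 5 mutant arrays than the wild-type mean. The first (10421924) gave 7.14, 7.31, 7.18, 7.27 and 7.27 in mutants, against 7.27, 7.41, 7.34, 7.24 and 7.44 in wild type. The second (10421932) gave 7.44, 7.58, 7.45, 7.58 and 7.48 in mutants, against 7.56, 7.64, 7.63, 7.58 and 7.73 in wild type. Arrays of the genotypes overlapped in both, with 2 and 3 mutant arrays below the lowest wild-type array. The differences were -0.11 (SE 0.064) and -0.12 (SE 0.060), with limma adjusted p of 0.729 and 0.607, so neither passed. The probe sets share the gene and the embryos and are no independent replicates.

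Pcdh10, which guides axon growth in the ventral forebrain, had the most negative difference of the non-clustered genes. It gave 6.74, 6.56, 6.39, 6.53 and 6.59 in mutants, against 6.59, 6.80, 6.75, 6.75 and 6.62 in wild type. Mutant arrays 2, 3 and 4 lay below the lowest wild-type array, and mutant arrays 1 and 5 lay within the wild-type range. The difference was -0.14 (SE 0.074, limma adjusted p = 0.654). Pcdh20 had the most positive one, with 6.15, 6.19, 6.28, 6.25 and 6.37 in mutants, against 6.04, 6.07, 5.92, 6.12 and 6.34 in wild type. All mutant arrays were above the wild-type mean but wild-type array 5 was above 4 of them, and the difference was 0.15 (SE 0.079, limma adjusted p = 0.640).

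Other protocadherins of the early brain gave smaller or more variable values. Pcdh17, known from axon bundles and synapses of the basal ganglia, differed by -0.031 (SE 0.099, limma adjusted p = 0.970), with a mutant SD of 0.23 and a wild-type SD of 0.10. Pcdh7 differed by 0.091 (SE 0.063, limma adjusted p = 0.778), with 4 mutant arrays above the highest wild-type array and mutant array 5 below the lowest. The probe sets of Pcdh8, whose product acts in cell sorting of the mesoderm and at synapses, differed by -0.0052 and -0.044, and Pcdh1 by -0.023. None of these was called.

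Members known mainly from other tissues were measured too. Pcdh15, a tip-link protein of hair cells, differed by -0.095, and Cdhr1 (titled protocadherin 21), a photoreceptor protein, by 0.0009. Cdhr2 (protocadherin 24) and Cdhr5 (mucin-like protocadherin), which join microvilli of epithelia, differed by 0.089 and -0.056. Limma adjusted p of these 4 ran from 0.845 to 0.998, and all lay below 8.57 in both genotypes. Pcdh12, a protocadherin of blood vessels, gave 7.66, 7.51, 7.68, 7.51 and 7.92 in mutants, against 7.55, 7.56, 7.76, 7.47 and 7.64 in wild type (difference 0.061, SE 0.085, limma adjusted p = 0.905). Of 12 endothelial markers 0 were called. At an unadjusted p under 0.05, where 8.48% of all probe sets lay in either direction, 3 of these 12 markers were higher. Their median was 0.13, and their mean level was 7.81 to 7.96 on mutant arrays, against 7.65 to 7.87 on wild-type arrays. Their part in the value of Pcdh12 was not tested.

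Genes that act on or with protocadherins were read from a list chosen for their known roles. Of 19 regulators of the clustered genes, 0 rose and 0 fell. An unadjusted p under 0.05 was reached by 8.48% of all probe sets and by 1 of these 19 regulators. Their median was -0.014, with no settled sign, since it was 0.035 without mutant array 1, 0.0083 without wild-type array 4 and 0.015 with array weights. The gene under 0.05 was Dnmt3b, the DNA methyltransferase that methylates clustered promoters in the embryo, at 8.03 ± 0.069 in mutants and 7.86 ± 0.046 in wild type (difference 0.18, limma adjusted p = 0.331). Smchd1, a chromatin protein that represses the clusters, differed by -0.17 (limma adjusted p = 0.609), and Ctcf by 0.0062 (limma adjusted p = 0.992).

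Several genes of the cohesin ring were low on a single array. Smc1a gave 9.34, 10.87, 10.80, 10.91 and 10.89 on mutant arrays 1 to 5, against 10.85, 10.86, 10.84, 10.88 and 10.90 in wild type. Smc3 gave 9.14, 10.93, 10.89, 10.95 and 10.75 in mutants, against 10.81, 10.77, 10.80, 10.86 and 10.71 in wild type. Stag2 gave 8.05, 9.19, 9.14, 9.16 and 8.76 in mutants, against 9.08, 9.03, 9.13, 9.12 and 9.06 in wild type. Mutant array 1 was thus the lowest of all 10 arrays in each, and the other mutant arrays lay at or near the wild-type values, with mutant array 5 the next lowest in Stag2. None of the 3 was called (limma adjusted p = 0.807, 0.861 and 0.805), and without mutant array 1 their differences were 0.0025, 0.088 and -0.021. On that same array the mean of the beta probe sets was 4.96 and the gamma probe set was at its highest value, 7.67. The negative controls there had the highest median (5.82) and 95th percentile (8.86) of the 10 arrays. Those values are of 1 array, and any relation between them was not tested.

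Of 23 signalling partners of protocadherins 0 were called, and the median was -0.047. At an unadjusted p under 0.05, 4 were lower, while 8.48% of all probe sets reached that level in either direction. Brk1, a subunit of the WAVE complex that some protocadherins recruit, differed by -0.23 (SE 0.073, limma adjusted p = 0.293), and Marcks, an actin-binding protein through which gamma protocadherins act on dendrites, by -0.22 (SE 0.073, limma adjusted p = 0.345). Among related adhesion genes, 0 of 18 classical cadherins and 0 of 8 large cadherins were called. At an unadjusted p under 0.05 there were 3 and 2 of them, beside the same 8.48% of all probe sets. With array weights Fat4 was called lower (-0.37, adjusted p = 0.0327). The classical cadherin median was -0.0059, and it ran from -0.023 to 0.0082 with 1 array left out and was 0.0039 with arrays centred on their medians. The large cadherin median was -0.075, and it was -0.16 without mutant array 1, -0.041 without mutant array 2, -0.048 without mutant array 3 or wild-type array 5 and -0.18 with array weights. The differences with the smallest p were -0.24 in Cdh8, 0.19 in Cdh11, -0.30 in Fat4 and 0.28 in Fat1, with limma adjusted p of 0.228, 0.317, 0.247 and 0.345.

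Neurons are the cells best known for protocadherins. Beside the marker counts below, 0.300% of all probe sets were called and 8.48% had an unadjusted p under 0.05, in either direction. Of 19 neuron markers 0 rose, 5 fell and 14 were not called; the 5 were Tubb3, Map2, Slc17a6, Elavl4 and Tbr1. The median was -0.41, and 14 were lower at an unadjusted p under 0.05. With 1 array left out 2 to 7 were called (2 without wild-type array 1, 3 without wild-type array 2 or 3). Tubb3 and Map2 were called in each of these, Slc17a6 in 9 of 10, and Elavl4 and Tbr1 in 5 of 10. With array weights 9 were called. Of the 19, 16 had a mean of 8.57 or less, the negative-control 95th percentile, in at least 1 genotype. When only probe sets with a mean above that percentile were tested, 5 neuron markers remained and 3 were called. These were Tubb3, Map2 and Elavl3, of which Elavl3 was not called in the main fit. The mean level of the list was 7.06 to 7.49 on mutant arrays, against 7.58 to 7.83 on wild-type arrays. Tubb3, the tubulin of young neurons, averaged 10.15 ± 0.14 in mutants and 10.76 ± 0.13 in wild type (difference -0.61, limma adjusted p = 0.00414). The list was chosen with earlier results of these samples known, so its direction is no independent evidence. No test compared the neuron markers with the protocadherins. Of 13 cortical progenitor markers 1 fell (Fabp7, -0.92, limma adjusted p = 0.00150), and of 10 ventral telencephalon markers 1 fell (Dlx1, -0.63, limma adjusted p = 0.0440), which was no longer called when any of 8 arrays was left out (largest adjusted p 0.164). Fabp7 was called without any 1 array, and Hes5 was called too without mutant array 5 (-0.33, adjusted p = 0.0297) and, with Nes, under array weights. At an unadjusted p under 0.05, 7 progenitor and 4 ventral markers were lower. Of 10 red cell, 10 macrophage, 13 mesenchyme and 10 surface ectoderm markers 0 were called, and their medians were 0.26, -0.085, -0.100 and 0.14. At an unadjusted p under 0.05, limma had 7 red cell and 1 surface ectoderm markers higher and 3 macrophage and 2 mesenchyme markers lower. Without mutant array 1, 2 red cell markers were called higher. Slc4a1 was 1 of them (0.50, limma adjusted p = 0.0476), and it was also called higher with array weights. Without mutant array 4, the mesenchyme gene Lum was called lower (-0.48, adjusted p = 0.0232). Red cell markers averaged 9.79 to 10.28 on mutant arrays, against 9.64 to 9.98 on wild-type arrays, and the part of other cells in any value here was not tested.

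**Figure D3:**
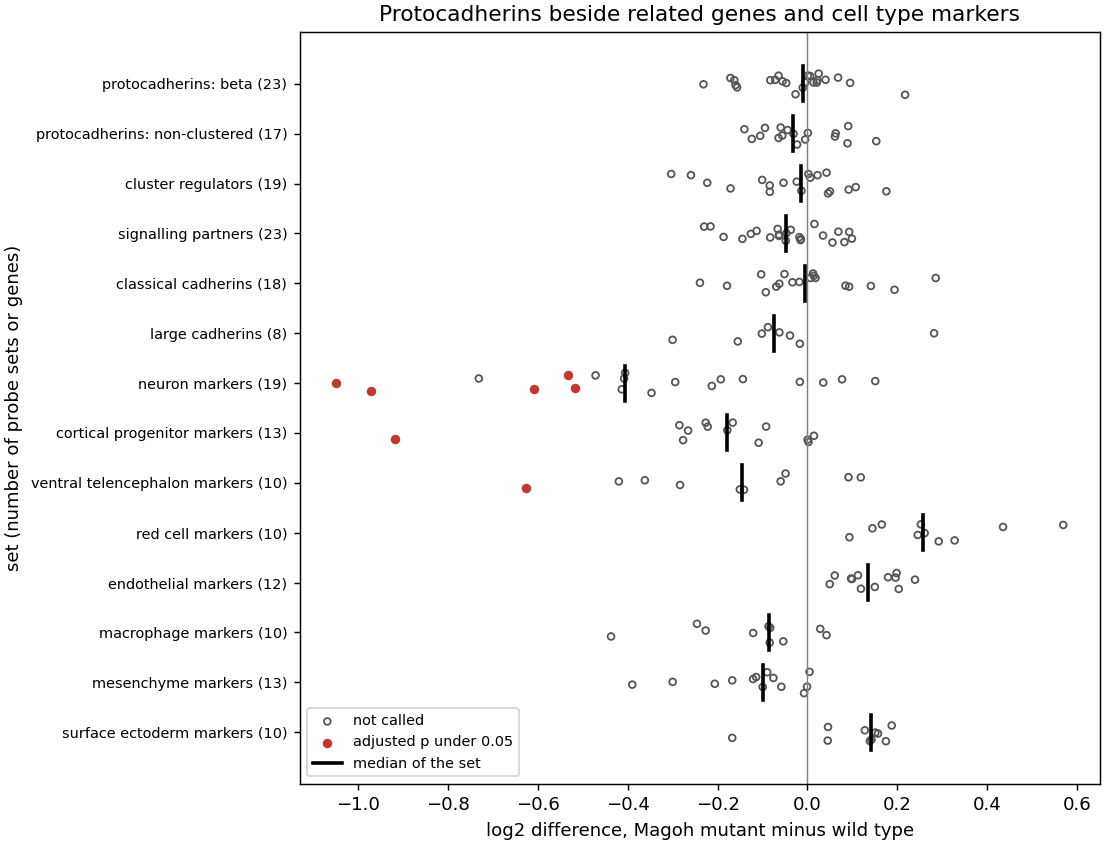
Log2 difference, Magoh mutant minus wild type (x axis), of beta and non-clustered protocadherin probe sets beside the genes of each list, with 1 circle per probe set or gene, filled where the adjusted p was under 0.05, and a bar at the median. The protocadherins lie between -0.23 and 0.22 around 0, while 5 of 19 neuron markers are filled and the neuron median is -0.41.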

How the data were processed

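The deposited values are log2 levels per probe set. Per the submitters' processing notes, the authors used RMA, which normalizes between arrays and removes any shift common to all genes, within Expression Console, whose version the sources used here do not give. The labels' protocols give 300 ng of RNA per array, of a whole-transcript GeneChip 1.0 ST design. The deposited annotation supplied accession, gene number and title of each probe set, and gene numbers or accessions were updated through the gene table of GRCm38.p6, which gave a symbol to 23787 of 29011 probe sets. A further 10 deposited columns of per-sample values matched no label and were not used, and 86 probe sets had no annotation row.

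All 6546 controls were left out. Mutant minus wild type was fitted with limma 3.58.1 (lmFit, eBayes) in R 4.3.3 on 10 arrays without covariates, with Benjamini-Hochberg adjustment over 29011 probe sets, and probe sets with an adjusted p under 0.05 were called. The fit was tested on simulated data. The p-values set each difference against the spread between arrays of different embryos, with variances moderated over all probe sets. An array has no read depth, so the number of arrays sets the precision. No batch or litter could be tied to an array. For list genes with several probe sets the one with the highest mean was used.

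The members and lists were chosen with earlier results of these data known. Named by rule were Magoh and, per class, members called or with an unadjusted p under 0.05, the 3 highest means and the largest difference each way. Lists gave their called genes, otherwise up to 2 with the smallest p. Other genes were named after their values were seen, and 1 list gene is not reported here. Alternatives were quantile normalization, median centring, 2 filters on dim probe sets, 1 probe set per gene, array weights, a variance trend with intensity, Xist as a covariate, a block for the replicate number and leaving out each array.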

Additional observations from a re-analysis of the deposited data

Results flagged for a closer look

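Among the 42 protocadherin probe sets, Magoh and the 19 regulators, 6 of 124 groups of 5 arrays held an array far from the other 4. Chance alone flags about 1 in 20 groups that are independent, but these groups share the same 10 arrays, so the count was not compared with it. For Pcdhb8 mutant array 4 was at 5.59 and the other mutant arrays at 5.89 to 5.99, and for Pcdh18 wild-type array 1 was at 10.35 and the others at 10.502 to 10.56. The remaining 4 were all low on mutant array 1, where 119 of all probe sets were over 1 log2 unit below the other mutant arrays. Smc1a was at 9.34 there, against 10.80 to 10.91 on the other mutant arrays, Smc3 at 9.14, against 10.75 to 10.95, Stag1 at 9.29, against 9.84 or more, and Ctcf at 10.12, against 10.35 to 10.40.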

How the results depend on the processing

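In all 19 alternatives 0 protocadherin probe sets were called in either direction, with a smallest adjusted p of 0.194 (limma with array weights). Not all of these tested the 42 members. The filters on dim probe sets kept 21 (median) and 2 (95th percentile), and 1 probe set per gene kept 39. Between 0 and 5 members had an unadjusted p under 0.05, with 5 under array weights and under the replicate block. The share of all probe sets at that level is given for the main fit alone (8.48%). These counts can therefore not be set against a share of their own setting. Of all probe sets 87 were called, against 48 when only those above the negative controls' 95th percentile were tested, 304 with array weights and 43 to 124 without 1 array, with 43, 48 and 56 without wild-type array 2, 1 and 3. The class medians lay within -0.097 to -0.014 for alpha, -0.046 to 0.00094 for beta, -0.041 to 0.060 for gamma and -0.082 to 0.019 for non-clustered genes. Signs of differences near 0 turned. With array weights Pcdhb4 was -0.019, Pcdhb11 -0.066, the gamma probe set -0.036 and Pcdh19 -0.010, and with Xist as a covariate Pcdhb11 was -0.0043. Without 1 array Pcdhb4 ran from -0.020 to 0.085, Pcdhb11 from -0.051 to 0.037, Pcdhb15 from -0.058 to 0.042, the gamma probe set from -0.041 to 0.060, Pcdh17 from -0.11 to 0.023 and Pcdh19 from -0.012 to 0.14. The cause of these moves was not tested. Of all 42 members, 23 kept their sign without any 1 array. The replicate number as a block gave 62 calls in all, and Elavl4 and Dlx1 were not called under it. Same-numbered arrays correlated at 0.065, -0.059, 0.15, 0.31 and 0.16 in their deviations from the genotype means. Of the 5 mutant arrays, 3 correlated best with their own number. These values do not settle whether the numbers pair the embryos. No label says that they do, so the main fit did not use the numbers. The magnitude a call needs, 0.31 to 0.63 for these members, and signal below 8.57 in 40 of 42 limit what could be seen. Of the 19 neuron markers, 16 were at 8.57 or less in at least 1 genotype, and 5 of the 19 were called. They were less dim than the protocadherins. The filter on the negative-control median kept all 19 of them, against 21 of the 42 members.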
